A study of Mus musculus with 10 samples.

Results

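Heat shock and DNAJ chaperone transcripts were followed in mouse liver (FVB, an inbred strain) on Illumina bead arrays, with the RNA of 1 mouse on each array. The members are all probes whose annotated gene symbol begins with Hspa, Hspb, Hspd, Hspe, Hsph, Hsp90a or Dnaj, without the endoplasmic reticulum stress genes Hspa5, Hspa13, Dnajb9, Dnajb11 and Dnajc3. They came to 124 of the 45281 probes and stand for 63 of the 19057 genes with a probe of 1 symbol. In 6 mice LKB1 (the kinase encoded by Stk11) had been overexpressed from a wild-type plasmid injected into the tail vein, 1 injection per week for 8 weeks, and 4 mice were untreated. No injection is labelled for the untreated mice, so plasmid, injection and added LKB1 cannot be told apart. No source used here gives the age or sex of the mice, the time of tissue collection, the plasmid's promoter or the share of liver cells it reached. The source is labelled as liver hepatocytes and the tissue as liver, with no isolation step described.

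Chaperones of these families bind unfolded stretches of other proteins and help them fold, move or reach degradation. HSP70 proteins do this in cycles of ATP binding: J-domain proteins of the DNAJ families bring the client and start ATP hydrolysis, and HSP110 proteins release ADP so that the cycle can restart. HSP90 takes over late folding steps of kinases and nuclear receptors, small HSPs hold aggregation-prone proteins, and HSP60 (Hspd1) with HSP10 (Hspe1) folds proteins in the mitochondrial matrix. Part of these genes is transcribed at all times, and part is induced by the heat shock factor HSF1, which binds inverted repeats of the bases GAA upstream of its targets. LKB1 activates AMPK and its relatives and is itself a client of HSP90. The name rule takes in more than cytosolic chaperones: Hspa9, Hspd1, Hspe1, Dnaja3, Dnajc11, Dnajc15, Dnajc19 and Dnajc30 encode mitochondrial proteins, Dnajb12, Dnajc1, Dnajc10 and Dnajc16 proteins of the endoplasmic reticulum, and Dnajc8 and Dnajc17 nuclear proteins of RNA splicing. Hspb11, Hspbp1 and Hspbap1 begin like the small HSPs but do not belong to that family. The genes are therefore called heat shock and DNAJ chaperones here.

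Upstream sequences are shown for genes on which the values below turn: 3 heat-inducible genes (Hspa1a, Hspb1 and Hsph1), the stretch between the divergent starts of Hspd1 and Hspe1, and Hspa4l, the member of smallest p. They are RefSeq sequences of build GRCm38.p6, written 5′ to 3′ on the strand of the gene (of Hspe1 for the shared stretch), and end at the base before the annotated start. Capitals mark the fixed bases of the heat shock element searched, GAANNTTC or TTCNNGAA, each of which reads the same on both strands.
Hspa1a: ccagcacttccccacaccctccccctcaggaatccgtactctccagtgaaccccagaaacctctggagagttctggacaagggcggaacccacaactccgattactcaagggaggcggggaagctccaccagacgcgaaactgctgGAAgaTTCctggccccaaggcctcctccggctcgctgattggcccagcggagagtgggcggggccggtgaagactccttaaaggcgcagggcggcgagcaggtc
Hspb1: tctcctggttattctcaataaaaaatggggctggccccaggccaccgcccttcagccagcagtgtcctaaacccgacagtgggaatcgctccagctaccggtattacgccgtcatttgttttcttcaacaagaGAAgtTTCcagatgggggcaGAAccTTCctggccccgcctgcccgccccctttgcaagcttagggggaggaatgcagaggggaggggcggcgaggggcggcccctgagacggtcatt
Hsph1: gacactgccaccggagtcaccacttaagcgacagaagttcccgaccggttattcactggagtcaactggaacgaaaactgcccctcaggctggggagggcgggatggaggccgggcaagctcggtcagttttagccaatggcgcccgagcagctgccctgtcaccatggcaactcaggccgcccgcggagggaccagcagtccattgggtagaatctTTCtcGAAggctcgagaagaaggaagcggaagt
Hspd1-Hspe1: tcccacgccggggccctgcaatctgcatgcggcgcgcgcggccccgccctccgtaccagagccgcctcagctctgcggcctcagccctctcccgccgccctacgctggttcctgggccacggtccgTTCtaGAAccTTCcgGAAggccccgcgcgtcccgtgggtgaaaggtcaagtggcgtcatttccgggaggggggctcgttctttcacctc
Hspa4l: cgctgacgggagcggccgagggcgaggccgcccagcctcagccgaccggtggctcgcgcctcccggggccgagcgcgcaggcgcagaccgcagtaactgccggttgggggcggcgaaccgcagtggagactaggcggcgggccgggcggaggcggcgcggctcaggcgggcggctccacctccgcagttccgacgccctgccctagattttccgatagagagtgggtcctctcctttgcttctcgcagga
The stretches lie at chr17:34972157-34972406 on the minus strand (Hspa1a), chr5:135887669-135887918 on the plus strand (Hspb1), chr5:149636337-149636586 on the minus strand (Hsph1), chr1:55087933-55088147 (between Hspd1 on the minus strand and Hspe1 on the plus strand) and chr3:40745363-40745612 on the plus strand (Hspa4l). The element occurred 1 time upstream of Hspa1a, 104 to 97 bases before the start, 2 times upstream of Hspb1 and 1 time upstream of Hsph1. Between Hspd1 and Hspe1 there were 3 overlapping matches from 89 to 72 bases before the start of Hspe1, which form 2 overlapping runs of the 3-unit motif (GAANNTTCNNGAA, or TTCNNGAANNTTC on the other strand). The Hspa4l stretch held 0 matches.

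**Figure D1:**
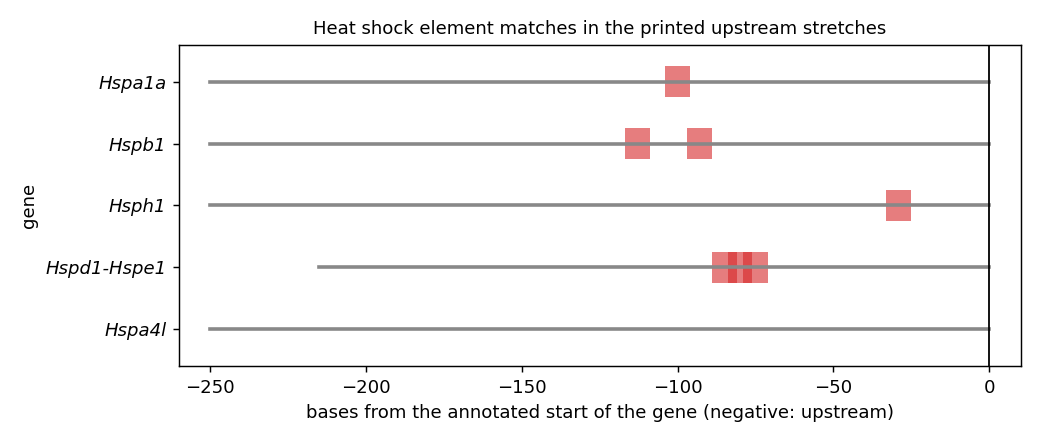
Positions of heat shock element matches (red boxes; darker where matches overlap) in the upstream stretches of 4 single genes and in the stretch shared by Hspd1 and Hspe1 (grey lines), in bases from the annotated start, which is that of Hspe1 for the shared stretch. The match nearest to a start is that of Hsph1, 33 to 26 bases upstream, and the Hspa4l stretch holds none.

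RefSeq windows reaching from 250 bases before to 50 bases after a start were given for 52 of the 63 genes. Among these, 15 genes (28.8%) held the 2-unit element, against 17.0% of all 27025 genes with a window. The 3-unit motif, which contains both forms of the 2-unit element, was found for 4 genes (7.69%), Dnajb6, Hspd1, Hspe1 and Hsph1, against 0.662% of all genes, with Hspd1 and Hspe1 sharing their site. The 3-unit match of Hsph1 does not lie wholly within the stretch shown above, which ends at the base before the start. A match of letters is a description of the window and not a measured binding site.

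Of the 63 genes, 44 had 1 or more probes (63 in all) with a detection p under 0.05 in 4 or more of the 10 mice, and 39 of these were detected on all 10 arrays at the probe that stands for the gene. The 19 genes below this filter included Hspa1b, Hspa1l, Hspa12a, Hspa14, Hspb2, Hspb3, Hspb7, Hspb9 and Hspb11 and the DNAJ genes Dnajb3, Dnajb7, Dnajb8, Dnajb14, Dnajc5b, Dnajc5g, Dnajc6, Dnajc9, Dnajc14 and Dnajc27. Of these, Hspa1l was detected on 3 arrays, all of the LKB1 group, no probe of Hspa1b, Dnajc6 or Dnajc27 on more than 1, and the other 15 genes on 0 arrays. Hspa1a and Hspa1b encode nearly the same protein from neighbouring genes, and no source used here says whether a probe of one also binds the other transcript. Dnaja4, Dnajc13, Dnajc21, Dnajc22 and Hsp90ab1, which meet the name rule in RefSeq, have no probe under that symbol in the annotation used and were not analysed here.

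Across the whole array, between 15374 and 16839 probes were detected per mouse, 16803 probes for 9725 genes passed the filter, and arrays correlated pairwise at r = 0.983 to 0.994. Stk11 mRNA itself, as log2 intensity, was 9.60 ± 0.12 (SD, n = 4) without and 9.66 ± 0.08 (SD, n = 6) with the plasmid, and no source used here says whether its probe can bind the plasmid's transcript. Probes detected on no array split the mice into array set A (untreated 1 and 2, LKB1 1, 2 and 4) and array set B (untreated 3 and 4, LKB1 5, 6 and 7). What made the sets differ is not given in the labels. All 6 hepatocyte markers checked were detected on all 10 arrays, with a median difference of 0.04 on the log2 scale. Of the Kupffer cell and macrophage markers, 7 of 7 measured genes had a higher mean with LKB1, by a median of 0.24, none passing the adjusted test (limma). Their average level ran from 6.998 to 7.64 in untreated and from 7.44 to 7.89 in LKB1 livers, and Cd5l, a defining marker, was detected on 0 arrays. Markers of endothelial, stellate, bile duct, lymphoid, neutrophil and red cells were measured in 4 of 5, 4 of 5, 2 of 4, 2 of 5, 1 of 4 and 2 of 4 genes, with medians from -0.13 to 0.21, and Krt19, Epcam, Ms4a1, S100a9 and Ngp were detected on 0 arrays. The part of these cells in the chaperone values was not tested. In whole-tissue RNA, fewer cells of a type and less RNA per cell cannot be told apart.

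With LKB1 overexpressed, no chaperone probe was called at an adjusted p under 0.05 (limma, 0 of 63 probes; 0% of the 16803 probes tested). The 44 genes lay close to 0, with a median log2 difference of 0.03 (LKB1 minus untreated) against 0.00 over all genes and a median absolute difference of 0.08 for both. Of the 44 genes, 25 (56.8%) were higher in LKB1 livers and 19 lower, and 49.2% of all genes were higher. At an unadjusted p under 0.05 there were 2 higher genes (4.55%, against 3.21% of all genes) and 1 lower gene (2.27%, against 3.10%), together 3 of 44 against 6.30% of all genes. These shares are near the background, and the small number of chaperone genes leaves 1 gene worth over 2 percentage points. For 39 of the 44 genes the 95% confidence interval lay within a 1.5-fold difference in either direction. The 5 genes whose interval reached beyond it were Hspa4l, Hsp90aa1, Hspa1a, Hspb1 and Dnajb1, each on the higher side. Some of the 39 genes were read near background. Dnaja1, Dnajb5 and Dnajc1, for example, had untreated means of 4.86, 4.77 and 4.79 and were detected on 8, 5 and 4 arrays. For such dim probes a narrow interval of intensities does not bound the change in mRNA.

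**Figure D2:**
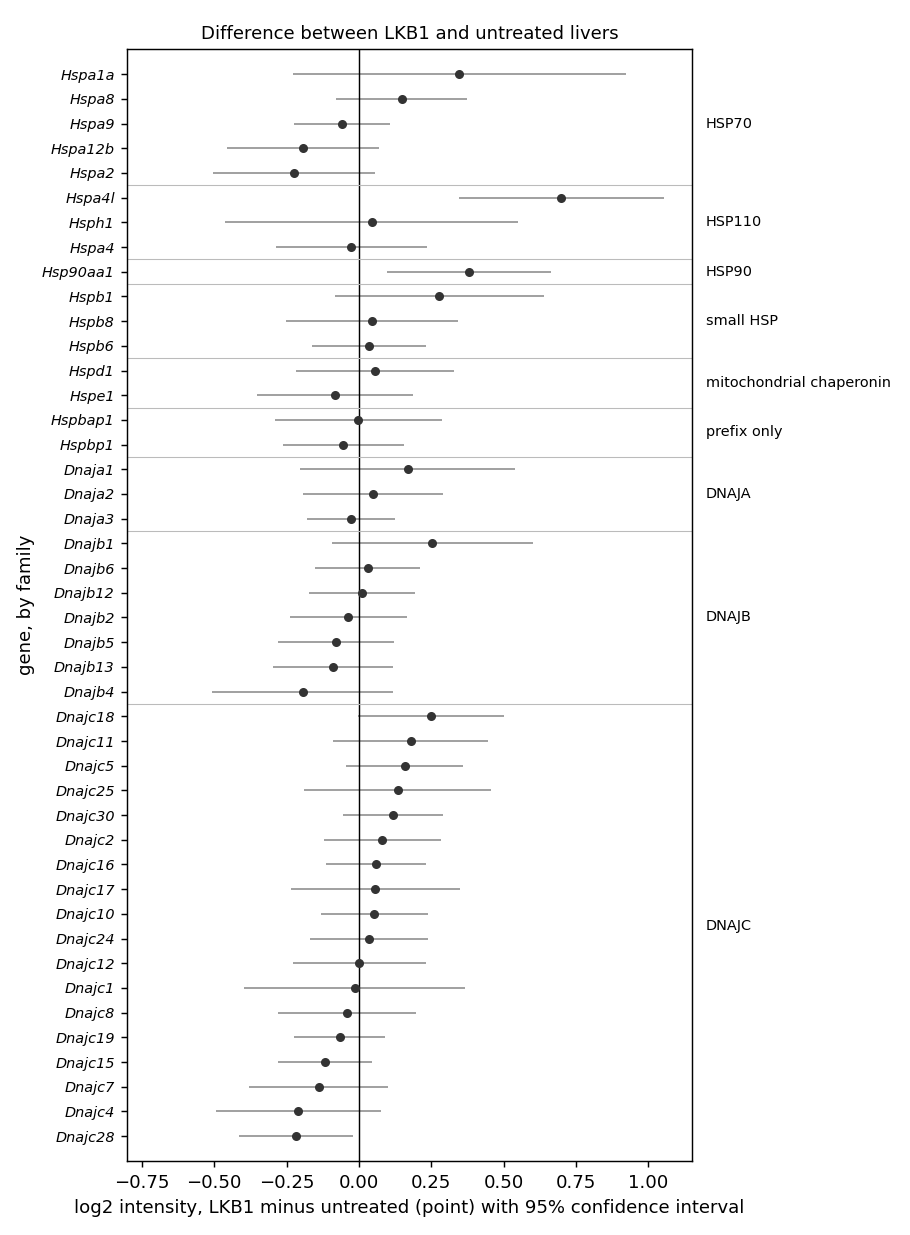
Difference in log2 intensity between LKB1 and untreated livers (points; LKB1 minus untreated, n = 6 and n = 4) with 95% confidence intervals from limma for the 44 measured chaperone genes, by family. Most intervals include 0; those of Hspa4l (0.70) and Hsp90aa1 (0.38) lie above it and that of Dnajc28 (-0.22) lies below it, all before adjustment over the array.

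Among the HSP110 exchange factors, Hspa4l had the smallest p of all members. Its log2 intensity was 5.30, 4.80, 4.67 and 4.93 in untreated 1 to 4, and in LKB1 livers it ran from 5.05 over a median of 5.71 to 5.87. LKB1 mice 1, 2, 4, 5 and 7 lay above all untreated mice, while LKB1 6 lay below untreated 1. The difference was 0.70 ± 0.16 (SE), 1.62-fold, with a 95% interval from 0.34 to 1.05 and an adjusted p of 0.393 (limma). With 1 mouse left out it stayed between 0.62 and 0.82. The probe lay near background, being detected in 3 of 4 untreated mice and in 6 of 6 with LKB1, so the fold rests on dim readings. Hsph1 (HSP105), the heat-inducible HSP110, was at 10.39, 9.91, 9.73 and 9.08 in untreated 1 to 4 and from 9.37 to 10.31 (median 9.85) in LKB1 livers. The untreated mice held both the highest and the lowest of all 10 values, and the difference of 0.04 ± 0.23 (SE) became 0.25 without untreated 1 and -0.19 without untreated 4. Hspa4, the constitutive HSP110, differed by -0.03 ± 0.12 (SE), on a probe near background (mean of 5.32 in untreated livers).

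Hsp90aa1, the inducible cytosolic HSP90, was measured by 2 probes that went the same way. On the brighter probe the values were 5.22, 5.40, 4.91 and 4.74 in untreated 1 to 4 and 5.26 to 5.64 (median 5.44) in LKB1 livers. Untreated 1, 3 and 4 lay below all LKB1 mice, while untreated 2 lay among them. The difference was 0.38 ± 0.13 (SE, adjusted p = 0.616, limma), and it was 0.24 ± 0.09 (SE, adjusted p = 0.646, limma) on the other probe, where untreated 3 and LKB1 5 met at 4.83. Both probes were near background, and the dimmer one was detected in 2 of 4 untreated mice and in 6 of 6 with LKB1. The dimmer probe thus passed the filter only through the group in which it was higher, so its direction is not independent support. Without untreated 4 the brighter probe gave 0.27.

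**Figure D3:**
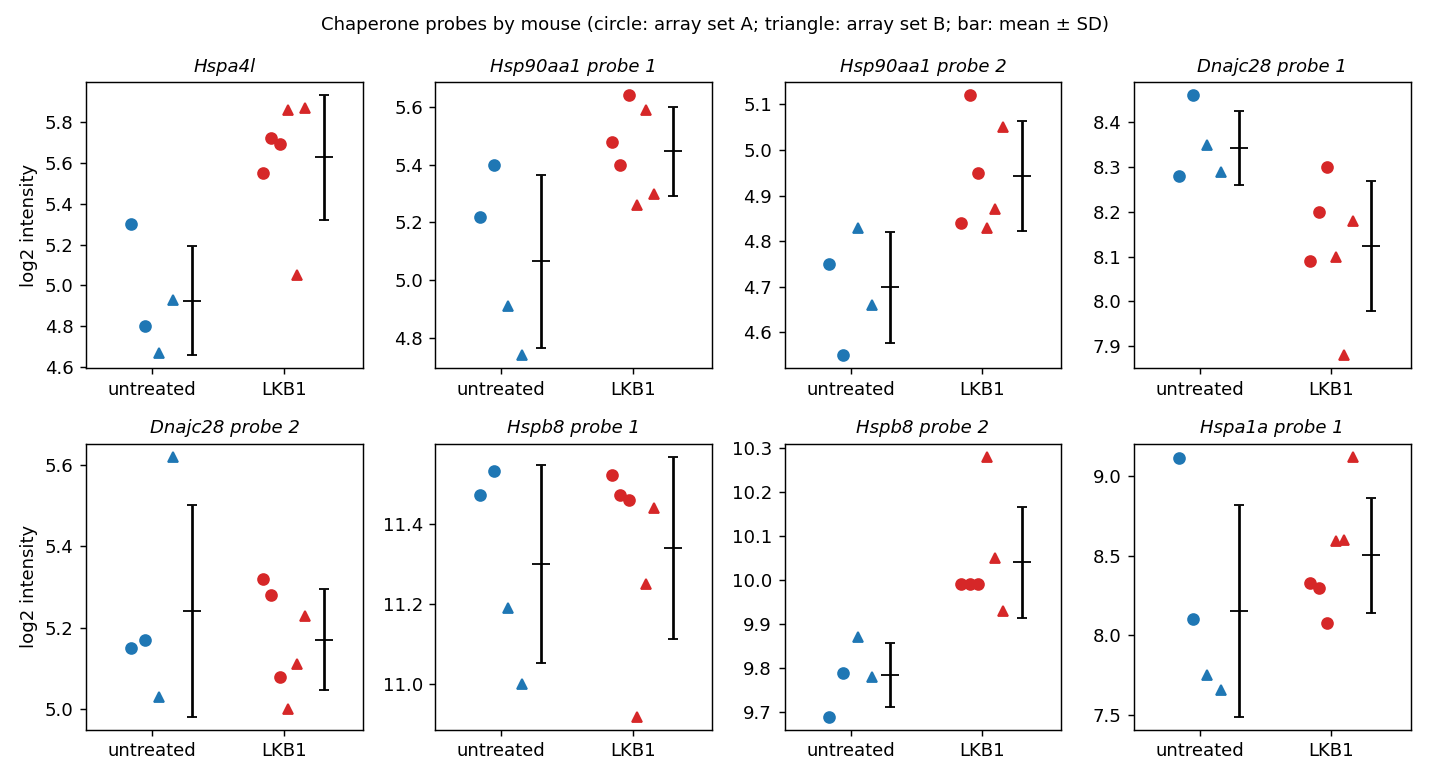
Log2 intensity of 8 chaperone probes in each mouse (blue: 4 untreated; red: 6 LKB1; circles: array set A; triangles: array set B), with the group mean ± SD in black; each panel has its own axis, which does not start at 0. In the second Hspb8 probe the 6 LKB1 mice, from 9.93 to 10.28, lie above the 4 untreated mice, and in the other 7 panels the groups overlap.

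Of the HSP70 genes, Hspa1a, the stress-inducible HSP70, varied most between mice. It was at 9.11, 8.10, 7.75 and 7.66 in untreated 1 to 4 and from 8.08 to 9.12 (median 8.46) in LKB1 livers. Untreated 1 and LKB1 7 stood level at the top, and the other 3 untreated mice held 2 of the lowest values and a value just above the lowest LKB1 mouse. The difference was 0.35 ± 0.26 (SE, adjusted p = 0.857, limma). With 1 mouse left out it ran from 0.18 (without untreated 4) to 0.67 (without untreated 1). The dimmer Hspa1a probe gave 0.29. It was detected in 2 of 4 untreated mice and 5 of 6 with LKB1, and so passed the filter only through the group in which it was higher. Hspa8, the constitutive HSP70 (HSC70), was measured by 3 probes, with differences of 0.15 ± 0.10, 0.20 ± 0.13 and 0.18 ± 0.17 (SE), the smallest adjusted p being 0.83 (limma). On the brightest of them untreated 4 was lowest at 12.70, and the other 9 mice lay between 12.92 and 13.24. Hspa9 (mortalin), the HSP70 of mitochondria, gave -0.06 on one probe and 0.11 on the other. Hspa2, an HSP70 best known from the testis, was lowest of the HSP70 genes at -0.23 ± 0.13 (SE, adjusted p = 0.806, limma), with -0.13 on its other probe. In all, 2 of 5 measured HSP70 genes were higher and 3 lower, with 0 past an unadjusted p of 0.05.

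The small HSPs gave the one chaperone probe at which the groups did not overlap, singled out after its values were seen. Hspb8, which works with the co-chaperone Bag3 in clearing misfolded proteins, had a second probe at 9.69, 9.79, 9.87 and 9.78 in untreated 1 to 4 and at 9.93 to 10.28 (median 9.99) in LKB1 livers. Every LKB1 mouse lay above every untreated mouse, by 0.25 ± 0.08 (SE), with an adjusted p of 0.61 (limma). Such a separation upward was found at 1 of 63 chaperone probes (1.59%), against 0.571% of all kept probes, and in either direction at 1.37% of all kept probes. The brighter Hspb8 probe did not show it, with a difference of 0.05 ± 0.14 (SE), LKB1 5 lowest of the 10 mice at 10.92 and untreated 2 highest at 11.53. No gene separated the groups at its brightest probe (0 of 44 chaperone genes, against 1.32% of all genes). Hspb1 (the mouse HSP25) was at 6.89, 6.45, 6.26 and 6.31 in untreated 1 to 4 and from 6.28 to 7.11 (median 6.82) in LKB1 livers, a difference of 0.28 ± 0.17 (SE, adjusted p = 0.819, limma). Untreated 1 again lay within the upper LKB1 values, and LKB1 1 within the lower untreated values. Hspb6 (HSP20) differed by 0.04 ± 0.09 (SE).

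The mitochondrial chaperonin genes, which share the stretch with 3 overlapping heat shock elements shown above, did not differ beyond the spread between mice. Hspd1 gave 0.06 ± 0.13 (SE) on the brighter and -0.01 on the dimmer of its probes, and Hspe1 gave -0.08 ± 0.12 (SE). For Hspd1 the 95% interval ran from -0.22 to 0.33, and for Hspe1 from -0.35 to 0.19.

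The J-domain genes made up 28 of the 44 measured genes, and 1 of them had an unadjusted p under 0.05. Dnajc28 was at 8.28, 8.46, 8.35 and 8.29 in untreated 1 to 4 and from 7.88 to 8.30 (median 8.14) in LKB1 livers. All LKB1 mice except LKB1 4 lay below all untreated mice. The difference was -0.22 ± 0.09 (SE, adjusted p = 0.708, limma), against -0.07 ± 0.12 (SE) on its other probe, where the groups overlapped. Dnajc18 had the highest difference of the DNAJC family, 0.25 ± 0.12 (SE, adjusted p = 0.748, limma), with LKB1 1, 2 and 4 at 5.51, 5.55 and 5.58 above all untreated mice and the other 3 LKB1 mice among them. The mice of these 3 values form the LKB1 arm of array set A, and within set A the difference was 0.45, against 0.04 within set B. Dnajc19, a part of the mitochondrial import motor, gave -0.07, 0.00 and -0.02 on its 3 probes. In the DNAJC family 11 of 18 measured genes were higher and 7 lower, with a median of 0.04. The 15 measured DNAJC genes besides these 3 lay between -0.21 (Dnajc4) and 0.18 (Dnajc11, a mitochondrial protein). Among those named here for their known role, Dnajc12, a partner of the aromatic amino acid hydroxylases of liver, was at 0.00 ± 0.11 (SE), Dnajc5, the cysteine string protein of vesicles, at 0.16 ± 0.09 (SE), and Dnajc2, a partner of HSP70 at the ribosome, at 0.08 ± 0.09 (SE). Dnajc10, a disulfide reductase of the endoplasmic reticulum, was at 0.05 ± 0.09 (SE).

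Dnajb1 (HSP40), the main heat-inducible partner of HSP70, was at 10.64, 10.02, 10.41 and 9.88 in untreated 1 to 4 and from 10.18 to 10.79 (median 10.47) in LKB1 livers. The groups overlapped, with untreated 1 above 4 of the LKB1 mice, and the difference was 0.25 ± 0.16 (SE, adjusted p = 0.829, limma). It was the highest of the 7 measured DNAJB genes, of which 3 were higher and 4 lower. Dnajb4 was the lowest at -0.19 ± 0.14 (SE), or -0.06 without untreated 1, and Dnajb2, best known from neurons, was at -0.04 ± 0.09 (SE). In the DNAJA family, Dnaja1, a cytosolic partner of HSC70, was at 0.17 ± 0.17 (SE) near background. Dnaja3, its mitochondrial relative, was at -0.03 ± 0.07 (SE) on its brightest probe, with values from 11.87 to 12.03 in all 10 mice. Its dimmer probes had opposite signs. The first gave -0.31 ± 0.10 (SE, adjusted p = 0.586, limma). The second gave 0.31 ± 0.13 (SE), was detected in 1 of 4 untreated mice and 4 of 6 with LKB1, and so passed the filter only through the group in which it was higher. By probe, 7 of 63 chaperone probes (11.1%) had an unadjusted p under 0.05, 5 higher and 2 lower, against 6.66% of all kept probes. Of the 5 higher probes, that of Hspa4l, the dimmer one of Hsp90aa1 and the second dim one of Dnaja3 were not detected in all untreated mice, so this count supports nothing on its own.

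**Figure D4:**
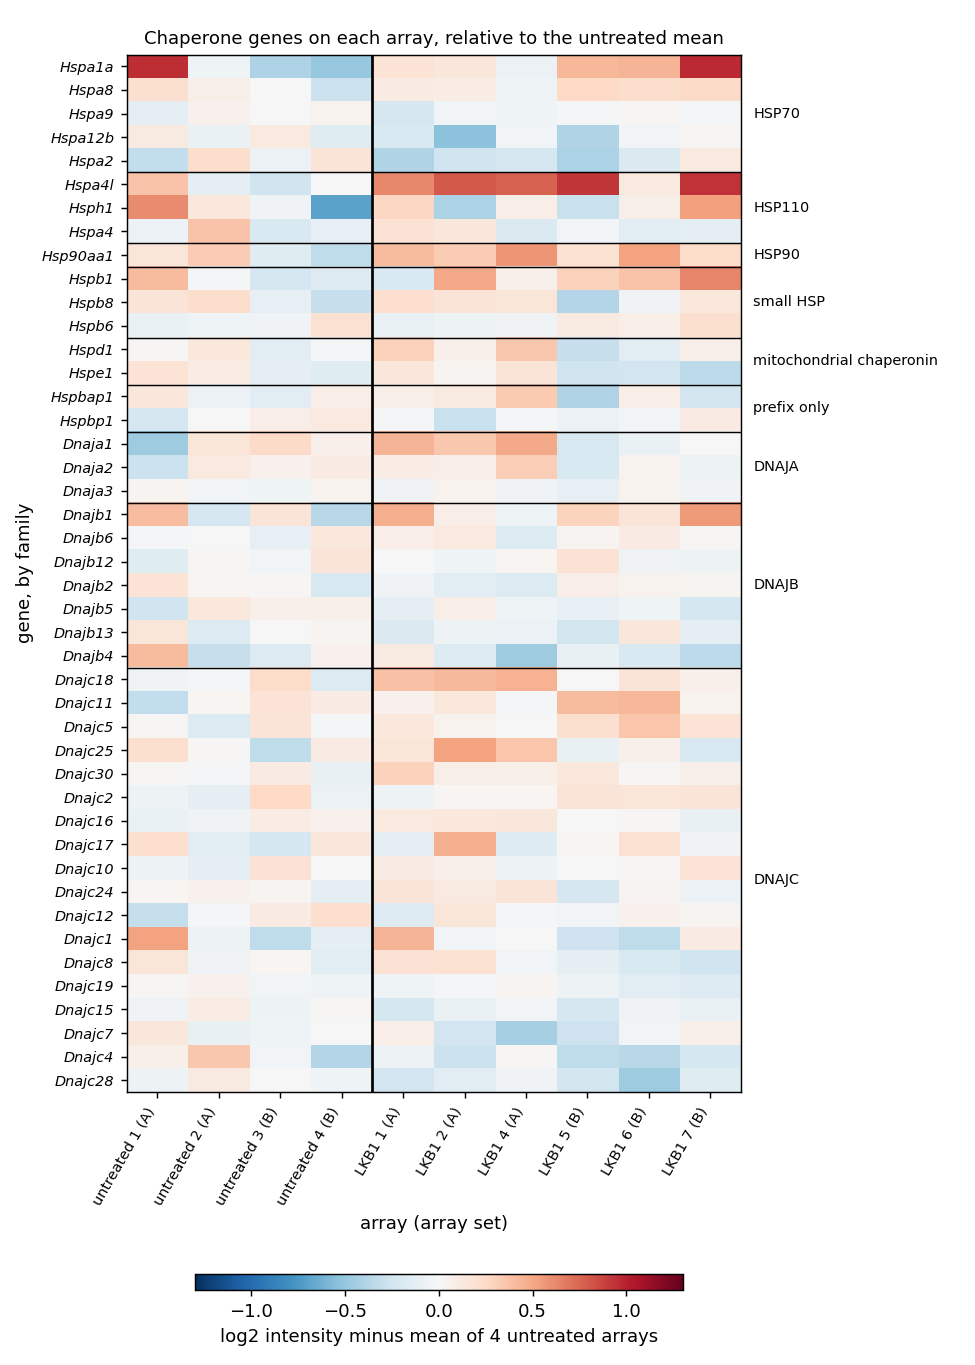
Log2 intensity of the 44 measured chaperone genes (rows, by family) in each of 10 mice (columns, with the array set in brackets), minus the mean of the 4 untreated mice; red is higher and blue lower, on the log2 scale given by the colour bar. Hspa1a, Hsph1, Hspb1 and Dnajb1 are high in untreated 1 and LKB1 7 alike, and Hspa4l is high in 5 of 6 LKB1 mice.

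Of 12 chaperone genes set against Hspa1a, Hspa8, Hspb1 and Dnajb1 varied with it from mouse to mouse by Pearson's r, and by Spearman's rho only Hspa8 passed the adjustment. Over the 10 mice, Hspa8 followed Hspa1a with r = 0.838 and rho = 0.903, Hspb1 with r = 0.823 and rho = 0.733, and Dnajb1 with r = 0.763 and rho = 0.758. Adjusted over the 12 genes, the permutation p (two-sided, 100000 resamples) was 0.0187, 0.0228 and 0.0448 for r and 0.0109, 0.0819 and 0.0819 for rho, in the order Hspa8, Hspb1, Dnajb1. Unadjusted, the permutation p was 0.00156, 0.0038 and 0.0112 for r and 0.00091, 0.0205 and 0.0145 for rho. Of the 9724 other genes, 5 had a higher r with Hspa1a than Hspa8, 8 than Hspb1 and 31 than Dnajb1. Without untreated 1 and LKB1 7, the mice farthest from the median of Hspa1a, r was 0.896 for Hspa8, 0.727 for Hspb1 and 0.619 for Dnajb1 (n = 8). Taken as deviations from each group's mean, r was 0.811, 0.794 and 0.722, and within the 6 LKB1 mice 0.835, 0.673 and 0.733. Each array set holds 5 mice, too few for a correlation of its own. Hspa1a was taken as the reference after the values were seen, the values of a mouse share 1 array, and the Hspa1a probe had the widest spread of the members.

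The other 9 genes set against Hspa1a did not pass the adjustment. Hsph1 had r = 0.702 and rho = 0.624 (adjusted permutation p = 0.0702 and 0.176). Its r was 0.731 as deviations from each group's mean and 0.491 within the 6 LKB1 mice. Without untreated 1 and LKB1 7 its r was 0.331, so that the relation rested on those mice. Hsp90aa1 had r = 0.392 and rho = 0.2, with r = 0.716 without those mice but -0.615 within the 6 LKB1 mice. Hspa4l had r = 0.55 and Hspb8 r = 0.287. The chaperonin genes Hspd1 and Hspe1 had r = -0.0978 and r = -0.15, Hspa9 r = -0.377 and Hspa4 r = -0.0642. Dnaja1, whose probe was near background, went the other way at r = -0.603 and rho = -0.588 (adjusted permutation p = 0.16 and 0.176). Without untreated 1 and LKB1 7 its r was -0.335, as deviations from each group's mean -0.789, and within the 6 LKB1 mice -0.708.

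**Figure D5:**
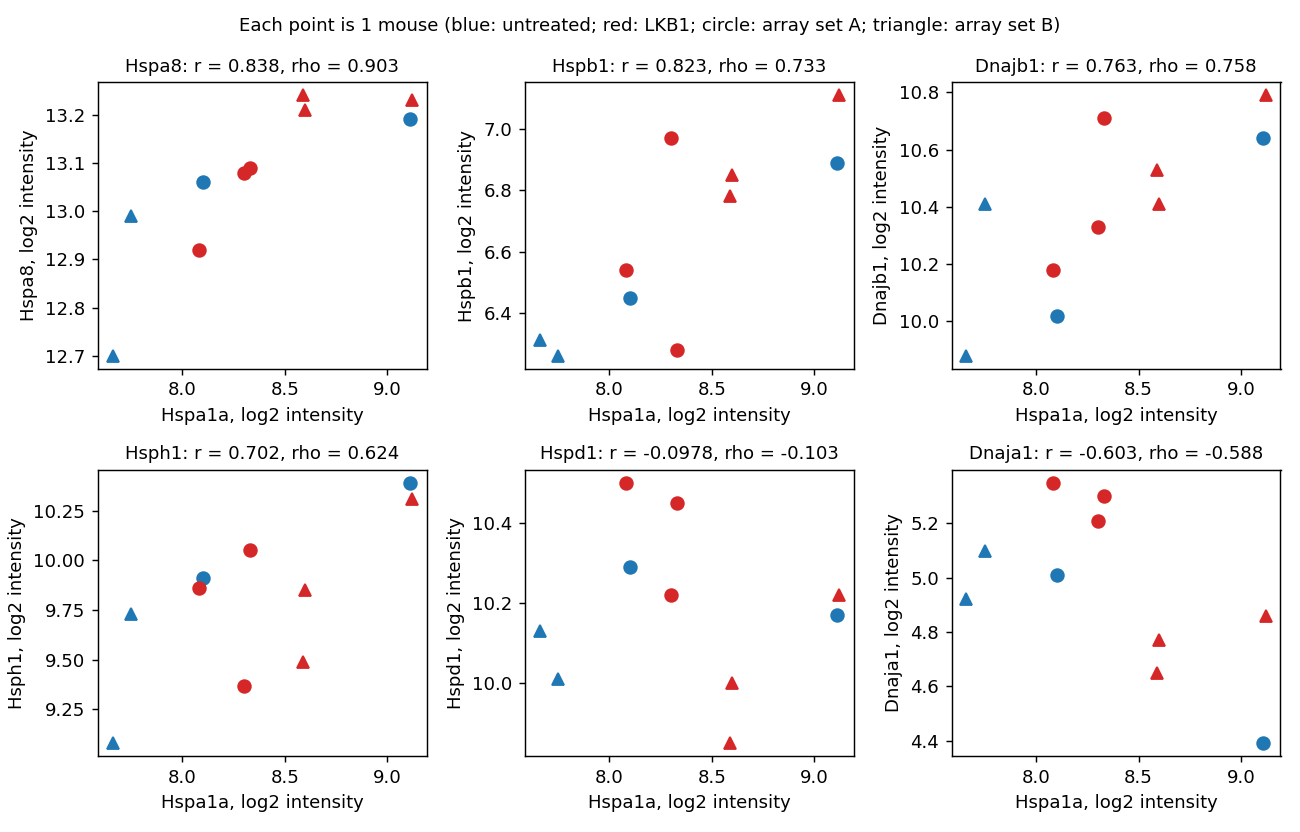
Log2 intensity of 6 chaperone genes against that of Hspa1a, each point 1 mouse (blue: untreated; red: LKB1; circles: array set A; triangles: array set B), with Pearson's r and Spearman's rho over 10 mice above each panel. Hspa8, Hspb1 and Dnajb1 climb with Hspa1a through both groups, the Hsph1 panel hangs on the pair of mice at the right, and Hspd1 and Dnaja1 do not climb.

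For Hspa1a, Hsph1, Hspb1 and Hspa8 the difference between LKB1 and untreated livers had opposite signs in the 2 array sets. This was not particular to them. Among other genes, Dnajb2 gave -0.23 in set A and 0.16 in set B, Dnajc16 0.21 and -0.09, and Dnaja2 0.25 and -0.15. Hspa1a differed by -0.37 in array set A, which holds untreated 1, and by 1.06 in array set B. For Hsph1 the differences were -0.39 and 0.48, for Hspb1 -0.08 and 0.63, and for Hspa8 -0.09 and 0.38. Dnaja1 had the opposite order, at 0.58 and -0.25. An interaction of group and array set had an unadjusted p under 0.05 in 7 of 44 chaperone genes (limma; 15.9%, against 3.54% of all genes), the smallest being those of Hspa1a and Dnaja1. None passed the adjustment (0 of 44, and 0% of all genes), the adjusted p of both genes being 0.999 (limma). The 7 genes include Hspa1a, Hspa8 and Hspb1. As Hspa8 and Hspb1 varied with Hspa1a from mouse to mouse, they do not count as independent of it in that share. Hspa4l was at 0.61 in set A and 0.79 in set B, Hsp90aa1 at 0.20 and 0.56, and the 44 genes had a median of 0.01 in set A and -0.04 in set B. Each set compares 2 untreated with 3 LKB1 mice.

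Partners of the chaperones were read from a list of 53 genes (heat shock factors, co-chaperones of HSP90 and HSP70, and subunits of the TRiC chaperonin and prefoldin), of which 40 were measured. None passed the adjusted test (0 of 40, limma), 20 were higher and 20 lower, and the median was 0.01. At an unadjusted p under 0.05 there were 0 higher genes and 1 lower gene of the 40, against 3.21% and 3.10% of all genes. That gene was Grpel2, a nucleotide exchange factor of mitochondrial HSP70, at -0.31 ± 0.12 (SE, adjusted p = 0.699, limma). Next by p came Bag3, the HSF1-inducible co-chaperone that pairs with Hspb8, at 0.35 ± 0.17 (SE, adjusted p = 0.758, limma), from 0.18 without untreated 4 to 0.52 without untreated 1. Stip1 (HOP), which links HSP70 to HSP90, was at 0.16 ± 0.08 (SE), and Hyou1, an exchange factor of the endoplasmic reticulum, at 0.20 ± 0.10 (SE). The Hyou1 probe was near background, with means of 4.70 in untreated and 4.90 in LKB1 livers, and was detected on 7 arrays. Of 10 measured TRiC and prefoldin subunits 2 had a higher and 8 a lower mean with LKB1 (49.2% of all genes were higher), with a median of -0.05 and 0 genes at an unadjusted p under 0.05. Hsf2 was detected on at most 2 arrays, and Hsf1 has no probe under that symbol in the annotation used.

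Genes with and without a heat shock element in the RefSeq window can be set side by side as a description. Of 35 measured genes with a window, 11 held the 2-unit element, and 9 of these were higher in LKB1 livers, with a median of 0.05 and values from -0.19 (Dnajb4) to 0.35 (Hspa1a). Of the 24 measured genes without it, 8 were higher, with a median of -0.03, and 49.2% of all genes were higher. These 8 include Hspa4l (0.70) and Dnajb1 (0.25), and 9 measured genes, among them Hspa8 and Hsp90aa1, had no window. Hspd1 and Hspe1 share their site, and both count among the 11. Of the higher genes with the element, Dnaja1, Hspa1a, Hspb1, Hspb6, Hspb8, Hspd1 and Hsph1 changed sign under an alternative given below. The remaining ones, Dnajb6 and Dnajc10, were not among the named genes followed there. Their other kept probes were all lower in LKB1 livers, at -0.175 and -0.02 for Dnajb6 and -0.03 for Dnajc10. Hspe1, a lower gene with the element, changed sign too. The split was not made over all genes, and its cause was not tested.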

How the data were processed

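RNA of 10 mouse livers was measured on Illumina bead arrays, 1 per mouse, after biotin labelling of amplified RNA, per the labels' protocols. Per the file headers, the deposited table holds for each probe and array a mean intensity before any normalization. Beside it stands a deposited p-value of detection. Whether background had been subtracted is not stated. The authors' processed values, read as log2 from their comparison with the intensities, have a median of 4.36 in every column. Per the submitters' processing notes, lumi was used. All per-sample columns were mapped (0 left over).

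Intensities were background-corrected by normexp from the detection p-values with an offset of 16, then normalized by quantiles and taken to log2 (neqc, limma 3.58.1, R 4.3.3). A probe was kept where 4 or more arrays had a detection p under 0.05. A gene is represented by its kept probe of highest mean, and symbols are those of GEO's platform annotation. Groups were compared with lmFit and eBayes, two-sided, and p-values were adjusted by Benjamini-Hochberg across the 16803 probes kept, with a threshold of 0.05. The step was also run on simulated data, with independent noise at each probe and no array sets, so that run does not cover those features of the arrays. Members and lists were chosen with earlier results of these data known. Named genes are those with an unadjusted p under 0.05 or no overlap of groups, 15 classic heat shock genes where measured, the brightest, highest and lowest of each family, and the 4 partners of smallest p. The mouse groups are those of the labels, and replicate numbers were not used as pairs. Array sets came from clustering probes detected on no array. No source used here gives the place of a probe in its transcript.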

Additional observations from a re-analysis of the deposited data

Results flagged for a closer look

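In 76 groups of values checked (25 named genes at their brightest probe and the other kept probes of named chaperone genes, in both mouse groups), 5 single mice lay far from the rest of their group by Dixon's criterion, which chance alone gives in about 1 of 20 groups. Hspb6 was at 11.15 in untreated 4, against 10.86 to 10.90 in the other untreated mice. Hspa9 was at 12.84 in LKB1 1, against up to 13.08 in the other LKB1 mice, and its other probe was at 11.71 in untreated 1, against 11.84 to 11.86. The dimmest Hspa8 probe was at 9.33 in LKB1 7, against 8.90 to 9.06, the mouse with the highest Hspa1a of its group. The second Hspb8 probe was at 10.28 in LKB1 5, against 9.93 to 10.05 in the other LKB1 mice, so the separation of groups at that probe does not rest on this mouse.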

How the results depend on the processing

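No partner gene passed the adjusted test under any alternative run (0), and no chaperone probe under those that test single probes (0), which leaves out the mean of a gene's probes. The difference between array sets, run again with equal medians, without background correction, with array weights, on the authors' values, without filter and on probes detected in all 10 mice, gave 0 chaperone genes each time. With array medians made equal the median of all genes was -0.157, and differences under that setting are given relative to it: Hspa4 at 0.07, Hspb6 at -0.03, Hspb8 at -0.03 and Hsph1 at -0.01. Its p-values test the differences without that correction, and by them 1 higher and 3 lower chaperone genes had an unadjusted p under 0.05. The count of lower genes was 3 with no filter, and 0 within array set A, within array set B and with the mean of a gene's probes; the count of higher genes was 1 among probes detected on all 10 arrays and 5 within array set B, where the median of the chaperone genes was -0.0356. With 1 mouse left out, there were 1 to 5 higher and 0 to 2 lower genes (5 and 2 without untreated 1), with a median from 0.00436 to 0.0484. Within array set A, Hspa1a was at -0.37, Hspa8 at -0.09, Hspb1 at -0.08, Hspb8 at -0.02 and Hsph1 at -0.39, and within set B Dnaja1 was at -0.25, Dnajb2 at 0.16, Hspa4 at 0.05 and Hspd1 at -0.05. With the replicate block, Hspa1a was at -0.05, Hspb6 at -0.09, Hspe1 at 0.08 and Hsph1 at -0.03, with 3 higher and 1 lower gene, a median of 0.0243 and 0 calls. Only the replicate numbers 1, 2 and 4 occur in both groups, so the differences under that setting come from the mice of those numbers alone. Deviations of same-numbered mice correlated at 0.146, 0.239 and -0.166. These values were not compared with those of mice of different numbers, so they cannot settle whether the numbers pair the mice. Untreated 4 and LKB1 4, which gave the negative value, also lie in different array sets. Hsph1 was at -0.01 with array weights, and Hspa9 at 0.03 with the mean of its probes. Other probes, an alternative added after seeing the data, gave 0.31 for Dnaja3, 0.11 for Hspa9 and -0.01 for Hspd1. With 1 mouse left out, Dnajb2 ran from -0.11 to 0.02, Hspa4 from -0.09 to 0.10, Hspb8 from -0.05 to 0.13 and Hsph1 from -0.19 to 0.25. The cause was not tested. Of 556 values of the named genes and Stk11 under alternatives, 28 changed direction and 528 did not, counting values that rounded to 0 as unchanged. Dim probes (among them those of Hspa4l, Hsp90aa1, Dnaja1, Hspa4 and Hyou1) and the number of arrays limit what can be detected.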
